A study of Mus musculus with 4 samples.

Results

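Lipocalin-2 (Lcn2) and 8 other genes of secreted innate defence were followed in cultured cortical neurons depleted of DcpS: Wfdc2, Saa3, C3, Serpina3n, Il6, the galectins Lgals1 and Lgals3, and Lgals3bp. They were taken by gene symbol from a table of 32681 genes, and all 9 were found. They were chosen by their secreted innate role and by earlier fold changes from the same 4 libraries, in which Lcn2, Wfdc2 and Lgals3bp were among the genes that fell most. Their levels and fold changes between the groups are therefore given as a description. They were also part of the fit to all genes, and their calls from it are a description too and support nothing.

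The 4 RNA-seq libraries came from primary neuron cultures prepared from the neocortex of wild-type CD-1 mouse embryos at embryonic day 13 and grown in Neurobasal medium with B27 supplement. Of these cultures 2 were transfected with control shRNA and 2 with DcpS shRNA, a short hairpin RNA against the enzyme that breaks down free cap structures released by mRNA decay. The comparison asked which transcripts change when DcpS is depleted. A transfected culture holds cells that took up no hairpin, and bulk RNA cannot tell fewer cells of a type from less RNA per cell. The labels do not state whether the cultures had separate litters as their source, and p-values therefore reflect only the variation among these 4 libraries, possibly technical.

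The libraries held 17754768 to 21793685 reads. Values are normalised read counts, that is, reads per gene divided by 1 factor per library. Dcps itself had 499.8 and 507 normalised reads in controls 1 and 2, against 114 and 119.6 in DcpS shRNA libraries 1 and 2, so both depleted libraries lay far below both controls. The neuronal markers Dcx, Map2 and Tubb3 averaged 1265, 1073 and 990.1 CPM (reads scaled to a common library total), so markers that define the labelled cells were abundant. Of 18110 genes that passed a filter on low counts, 1048 (5.79%) were called changed with DcpS shRNA, 661 of them lower and 387 higher. Called means a Benjamini-Hochberg adjusted p under 0.05 over all genes tested (limma, two-sided).

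Lipocalin-2 is a small secreted protein that binds the siderophores with which bacteria capture iron, and it is a classical acute-phase product of epithelia, neutrophils and reactive astrocytes. Serum amyloid A3, complement C3 and Serpina3n belong to the same acute-phase response, which is driven by interleukin-6 through STAT3, by interleukin-1 through NF-kB, and by C/EBP transcription factors. Galectins are sugar-binding lectins that leave the cell without a signal peptide, and Lgals3bp is a secreted glycoprotein that they bind.

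Promoter sequences from RefSeq (GRCm38.p6, 250 bases before to 50 after each gene's start) matched 8 of the 9 genes, all but Lgals1. Those of Lcn2, C3 and Saa3 are shown, picked as members called lower that hold the C/EBP word TTGCNNAA, read on either strand, in capitals.
Lcn2: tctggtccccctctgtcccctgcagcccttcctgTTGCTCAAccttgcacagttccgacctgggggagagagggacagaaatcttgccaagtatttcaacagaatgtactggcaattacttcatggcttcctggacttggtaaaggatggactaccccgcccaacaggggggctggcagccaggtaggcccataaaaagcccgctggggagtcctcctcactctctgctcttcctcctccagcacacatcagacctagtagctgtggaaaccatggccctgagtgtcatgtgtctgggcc
C3: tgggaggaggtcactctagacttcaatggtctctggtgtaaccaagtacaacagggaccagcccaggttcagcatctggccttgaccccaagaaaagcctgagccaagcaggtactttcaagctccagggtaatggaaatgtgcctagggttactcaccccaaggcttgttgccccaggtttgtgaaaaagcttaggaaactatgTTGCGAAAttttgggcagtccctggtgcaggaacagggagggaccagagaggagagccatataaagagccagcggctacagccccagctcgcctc
Saa3: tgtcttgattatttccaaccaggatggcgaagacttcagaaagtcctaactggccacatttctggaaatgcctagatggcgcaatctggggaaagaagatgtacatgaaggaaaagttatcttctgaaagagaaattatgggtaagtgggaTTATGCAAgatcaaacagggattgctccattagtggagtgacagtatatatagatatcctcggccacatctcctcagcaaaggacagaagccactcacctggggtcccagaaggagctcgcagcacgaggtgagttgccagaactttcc
They lie at chr2:32387690-32387989, chr17:57228087-57228386 and chr7:46715627-46715926, all on the minus strand. With the start base as position 0, the word ran from −216 to −209 in Lcn2, from −45 to −38 in C3 and, on the other strand, from −99 to −92 in Saa3. Il6 held it as well, from −128 to −121 on the other strand. So 4 of 8 member promoters had it, against 12.2% of 27025 genes with a promoter entry. Serpina3n (log2 fold change −1.80), Wfdc2 (−1.57), Lgals3bp (−1.25) and Lgals3 (0.05) did not. The part of the word in the members' levels was not tested. A match to the kB consensus of NF-kB was found only in Il6 among the 8, in 5.14% of all genes, and the STAT word TTCNNNGAA in none of them, in 9.55% of all genes. The words do not overlap in these promoters, and a match is a description of letters, not of a bound site.

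A 7-base word shared with Dcps was looked for in the annotated 3′ untranslated regions (GENCODE M21), because the words ACGTGCA and CACGTGC were common among the genes that fell. Of the 9 members Lgals3bp alone had one, near the end of its untranslated region; both stretches are shown with the word in capitals.
Dcps: ctatcacctgCACGTGCatttcacagc
Lgals3bp: attaaagtctCACGTGCttctca
A word was present in 8.002% of the 13709 tested genes that could be scanned and in 33.1% of those called lower. The words were picked for being common among the genes that fell, so the difference between these shares supports nothing. Its part in the level of Lgals3bp was not tested, and the hairpin's own sequence was not used here. On the gene lists further down, a word is marked beside called genes only. Steap3 (log2 fold change −0.03), Rel (−0.30), Osmr (−0.81), Amigo2 (−0.26), Bcl11b (−0.04) and Csf1r (−0.25) carry one too and were not called.

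Of the 9 genes, 7 had both DcpS shRNA libraries below both controls, a pattern shown by 24.0% of all genes tested. The filter kept 8 members, all but Il6, and 6 of these 8 were called lower and 0 higher, against 3.65% of all genes called lower and 2.14% called higher. The members were chosen with this contrast known, so nothing is read from that count. Their median log2 fold change was −1.28, and that of all genes tested was 0.00074. Called and at least 2-fold lower were 4 members (Lcn2, Wfdc2, C3 and Lgals3bp) and 0.331% of all genes. On whole reads recovered from the deposited values, edgeR called 7 of the 8 lower (3.85% of all genes), adding Serpina3n, and DESeq2 called 4 (2.25% of genes with an adjusted p), without Lgals1 and Saa3.

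Lcn2 (chromosome 2, 32384633 to 32388252, minus strand, GRCm38, GENCODE M21) had 607 and 744 normalised reads in the controls, against 195 and 245 with DcpS shRNA. Both depleted libraries lay far below both controls, and the gap between the groups was wider than the gap within either. The mean went from 675 ± 96.4 to 220.0 ± 34.9 (SD, n = 2 per group), a log2 fold change of −1.62 (SE 0.12) or 3.06-fold lower. Of the 12289 tested genes whose mean reached 5 CPM, Dcps alone was further down.

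Wfdc2 (chromosome 2, 164562413 to 164568510, plus strand) encodes a secreted protein with protease-inhibitor-like WAP domains. It had 164 and 195 normalised reads in the controls, against 54.5 and 64.8 with DcpS shRNA, so the groups did not overlap. The mean went from 179.6 ± 21.5 to 59.7 ± 7.28 (SD, n = 2), with a log2 fold change of −1.57 (SE 0.16). Its profile over the 4 libraries was the closest of any gene with at least 5 CPM to that of Lcn2, at a distance of 0.087 on the log2 scale (Euclidean, values taken relative to the control mean).

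C3 (chromosome 17, 57203970 to 57228136, minus strand) is the central complement protein, cleaved to mark targets for phagocytes. Its normalised read counts were 81.7 and 123 in the controls, against 38.2 and 41.3 with DcpS shRNA. The controls differed by 1.51-fold and the DcpS shRNA libraries by 1.08-fold, and the groups did not overlap. The log2 fold change was −1.31 (SE 0.21), and −1.02 without control 2, the higher of the controls.

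Saa3 (chromosome 7, 46711998 to 46715700, minus strand), a serum amyloid A made outside the liver in mice, changed less. It had 284 and 326 normalised reads in the controls, against 219.9 and 222 with DcpS shRNA, so the depleted libraries lay close together and below both controls. The log2 fold change was −0.46 (SE 0.11), or 1.37-fold lower. Without control 2 it was −0.36 and no longer called.

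Serpina3n (chromosome 12, 104406729 to 104414329, plus strand), a secreted serine protease inhibitor and a marker of reactive astrocytes, was thinly covered. It had 26 and 37 reads in the controls, against 4 and 15 with DcpS shRNA, or 24.7, 37.9, 3.63 and 16.8 after normalisation. All depleted values were below both controls, but the DcpS shRNA libraries differed by 4.61-fold from each other. The log2 fold change of −1.80 (SE 0.54) was the most negative of the members and was not called. It was −2.77 without DcpS shRNA 2, where it was called, and −0.83 without DcpS shRNA 1, where it was not. The handling of reads matching more than 1 gene is not stated, so values of Serpina3n, with its close neighbours in the Serpina3 cluster, and of Saa3, with its Saa relatives, are uncertain.

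Il6 (chromosome 5, 30013114 to 30019981, plus strand), the cytokine that drives the acute-phase response, was close to undetected. Its reads numbered 1 and 0 in the controls, against 2 and 6 with DcpS shRNA, against a floor of 3 reads that a count of 0 allows, so only DcpS shRNA 2 lay above the floor. The depleted libraries were both above the controls, as in 24.4% of all genes tested. The ratio of DcpS shRNA to control was 8.13, with a 95% exact interval of 1.09 to 361 that covers counting error only. Il6 therefore had too few reads for its direction to be read with any precision.

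**Figure D1:**
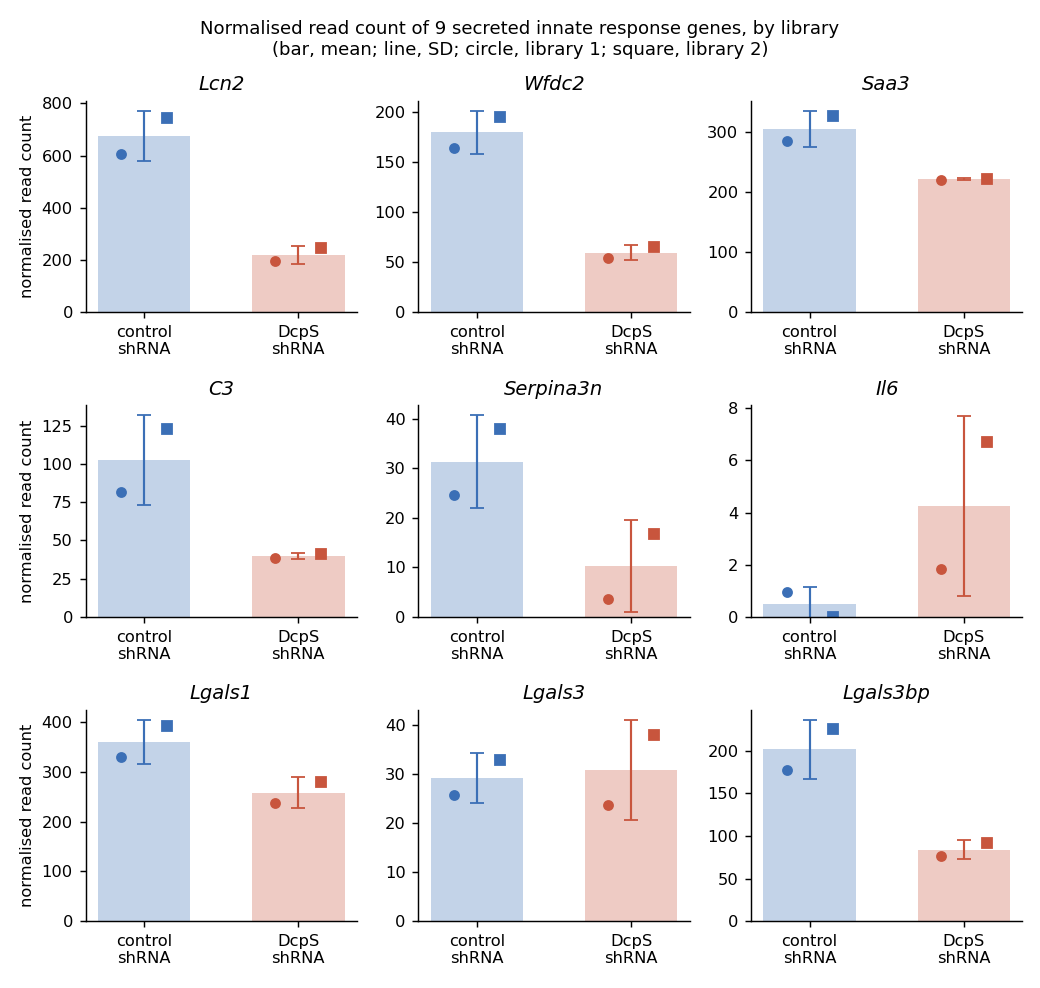
Normalised read count (vertical axes, linear from 0) of each of the 9 genes in control shRNA and DcpS shRNA cultures; bars are means of 2 libraries, lines the SD, circles library 1 and squares library 2. For Lcn2, Wfdc2, C3, Saa3, Serpina3n, Lgals1 and Lgals3bp both DcpS shRNA points lie below both control points, while Lgals3 overlaps and Il6 rests on 9 reads in all.

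The galectins and their binding partner had different fold changes, and the differences between these genes were not tested. Lgals1 (chromosome 15, 78926725 to 78930465, plus strand), galectin-1, had 329 and 391 normalised reads in the controls, against 236 and 279 with DcpS shRNA. Both depleted libraries were below both controls, with a log2 fold change of −0.48 (SE 0.11). The value was −0.35 without control 2 and −0.36 without DcpS shRNA 1, and in both it was no longer called.

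Lgals3 (chromosome 14, 47367751 to 47386160, plus strand), galectin-3, is a lectin abundant in activated microglia and macrophages. It had 25.7 and 32.8 normalised reads in the controls, against 23.6 and 38.0 with DcpS shRNA, so the groups overlapped and the depleted libraries held both the lowest and the highest value. The log2 fold change was 0.05 (SE 0.29), which turned to −0.13 without control 1 and to −0.29 without DcpS shRNA 2. As a level, Lgals3 amounted to 7.80% and 8.40% of the normalised reads of Lgals1 in the controls and to 10% and 13.6% with DcpS shRNA.

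Lgals3bp (chromosome 11, 118392751 to 118402092, minus strand) had 177 and 226 normalised reads in the controls, against 76.3 and 91.6 with DcpS shRNA. The groups were well apart, with a log2 fold change of −1.25 (SE 0.16), or 2.37-fold lower. The galectin-binding glycoprotein thus had a more negative fold change than either galectin.

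**Figure D2:**
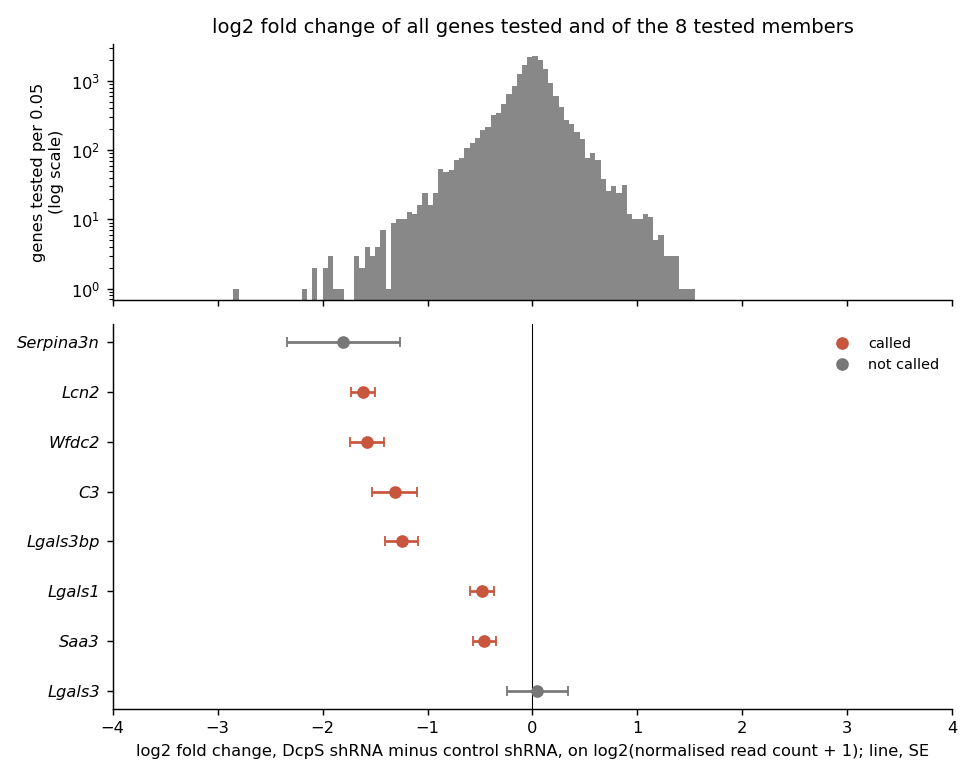
Upper panel, number of genes tested (log axis) by log2 fold change of DcpS shRNA against control shRNA; lower panel, the 8 tested members with their SE (lines) on the same horizontal axis, red where called. Serpina3n, Lcn2, Wfdc2, C3 and Lgals3bp sit between −1.80 and −1.25, Lgals1 and Saa3 near −0.5, and Lgals3 at 0.05.

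To set levels of different genes side by side, normalised reads were divided by the length of each gene's merged exons in kilobases. In the controls Lgals1 was highest at 398 ± 48.5 normalised reads per kilobase (SD, n = 2), followed by Lcn2 at 257 ± 36.8, Wfdc2 at 158 ± 18.9, Saa3 at 117 ± 11.4 and Lgals3bp at 70.7 ± 12.1. No library of one of these 5 reached the range of the next. C3 (19.9 ± 5.69), Lgals3 (15.7 ± 2.73) and Serpina3n (15.2 ± 4.54) came after them with overlapping ranges, and Il6 was last. With DcpS shRNA Lgals1 was still first at 285 ± 33.8, but Saa3 (84.9 ± 0.681) and Lcn2 (83.9 ± 13.3) now overlapped, and Lgals3 (16.6 ± 5.47) stood above C3 (7.73 ± 0.438). Lcn2 thus went from the 85.6th to the 69.9th percentile of the level per kilobase over 31655 genes, and Saa3 from the 74.4th to the 70.0th.

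Genes of the same acute-phase class outside the 9 were taken from a list of 34, of which 14 were tested. Of these, 4 were lower and 0 higher, with a median log2 fold change of −0.34. They were the broad protease inhibitor A2m (−0.73, SE 0.11; limma, Benjamini-Hochberg adjusted p 0.000501), the copper-carrying ferroxidase Cp (−0.86, SE 0.13; 0.000708), the chitinase-like protein Chil1 (−0.89, SE 0.20; 0.0128) and the lipid carrier Apoe (−0.34, SE 0.08; 0.0174). A2m had 366 and 400.0 normalised reads in the controls, against 213 and 249 with DcpS shRNA, and Cp had 202 and 238 against 122 and 119.6. Without control 2 Chil1 was −0.67 and Apoe −0.36, and neither was called. Apoe was also not called without control 1 (−0.32) or DcpS shRNA 2 (−0.29).

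Complement beyond C3 gave 1 lower and 0 higher among 27 tested genes of 38 listed, with a median log2 fold change of −0.07. At an unadjusted p under 0.05 there were 5 lower and 0 higher, and DESeq2 called 0 of the genes to which it gave an adjusted p.

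Receptors for lipocalin-2 and genes of iron handling gave 4 lower and 0 higher of 23 tested, with a median of −0.09. The metalloreductase Steap4 had 351 and 354 normalised reads in the controls, against 161 and 201 with DcpS shRNA, a log2 fold change of −0.97 (SE 0.12; limma, Benjamini-Hochberg adjusted p 8.77e-05). Lrp2, or megalin, an endocytic receptor that takes up lipocalin-2, went from 86.5 and 86.1 to 49.1 and 43.6 (−0.89, SE 0.19; adjusted p 0.00915), and it carries one of the 3′ words. Ncoa4, the receptor for ferritin breakdown, fell by 0.32 on the log2 scale (SE 0.06). Slc39a8, a metal importer with a 3′ word and few reads, was at −1.98 (SE 0.52) and was not called without control 1 (−1.99), control 2 (−1.98) or DcpS shRNA 2 (−1.72). Of the other known receptors on the list, named here after their values were seen, Slc22a17 had 2552 and 2421 normalised reads in the controls, against 2554 and 2594 with DcpS shRNA, with a log2 fold change of 0.05 (SE 0.05), and Mc4r had 362 and 352 against 330 and 353, with −0.06 (SE 0.09). Neither was called. Ferritin and transferrin receptor genes were not called.

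Other lipocalins and fatty-acid binding proteins gave 0 calls among 11 tested (limma; edgeR and DESeq2 also 0), with 0 lower and 1 higher at an unadjusted p under 0.05. The most abundant of them, Fabp7, Fabp5 and Fabp3, had log2 fold changes of 0.0023 (SE 0.06), 0.07 (SE 0.05) and −0.01 (SE 0.12), the sign of Fabp7 turning with edgeR and with TMM scaling. Of the WAP family 2 genes were tested and 1 was lower, the growth-factor antagonist Wfikkn2 (−0.70, SE 0.19; limma, Benjamini-Hochberg adjusted p 0.0452). Wfikkn2 was not called without control 1 (−0.62), control 2 (−0.77) or DcpS shRNA 1 (−0.61). Among 13 other galectins and galectin partners 3 were lower and 0 higher. These were the integrin subunit Itgb1 (−0.54, SE 0.05), the receptor Nrp1 (−0.29, SE 0.06) and Lgals9, galectin-9 (−0.84, SE 0.19), which was not called without control 1 (−0.85) or control 2 (−0.82).

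Signalling genes upstream of the acute-phase response were mostly not called: of 48 tested, 3 were lower, 2 higher and 43 not called, with a median of −0.06. Il6st, the gp130 subunit shared by receptors of the interleukin-6 family, had 857 and 869.6 normalised reads in the controls, against 668 and 600.1 with DcpS shRNA (−0.45, SE 0.07; limma, Benjamini-Hochberg adjusted p 0.00115), and it carries a 3′ word. Stat3, the transcription factor below it, went from 1010 and 1043 to 824 and 860.5 (−0.29, SE 0.06). Il1r1, the signalling receptor for interleukin-1, also with a 3′ word, was at 55.1 and 49.2 against 19.99 and 27.9 (−1.11, SE 0.25). The alpha receptor for ciliary neurotrophic factor, Cntfr, had 564 and 525 in the controls, against 747 and 812 with DcpS shRNA, and was higher (0.52, SE 0.08), as was Il17ra (0.27, SE 0.08). Calls ended for Stat3 without control 2 (−0.26) and for Il1r1 without control 1 (−1.03) or DcpS shRNA 1 (−0.88). That of Il17ra ended in each of the 4 fits that left out 1 library (0.25 to 0.28) and with DESeq2, without a filter, and with TMM or library-total scaling. At an unadjusted p under 0.05 there were 7 lower and 3 higher.

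Sets of genes induced in reactive astrocytes, in which Lcn2, Serpina3n and C3 are commonly placed, differed in their counts. The set shared by several injuries gave 4 lower and 0 higher of 10 tested, with a median of −0.70: Steap4 and Cp, both on lists above, the interferon-induced chemokine Cxcl10 (−0.90, SE 0.22) and the astrocyte filament gene Gfap (−0.91, SE 0.21). Gfap had 111 and 193 normalised reads in the controls, against 78.1 and 77.1 with DcpS shRNA, so that control 2 stood apart. The set linked to ischaemia gave 4 lower and 0 higher of 11, with a median of −0.60: Stat3, Cd109 (−0.74, SE 0.18), S100a10 (−0.73, SE 0.20) and the prostaglandin synthase Ptgs2 (−1.22, SE 0.33). The set linked to inflammation gave 1 lower and 0 higher of 10, the elastic-fibre protein Fbln5 (−0.65, SE 0.16), with a median of 0.0037. Whether the sets differ from each other was not tested. Without control 2 the genes called numbered 2 in the shared set and 0 in each of the ischaemic and inflammatory sets. The calls that ended were those of Cxcl10 (−0.72), Gfap (−0.51), Stat3 (−0.26), Cd109 (−0.59), S100a10 (−0.48), Ptgs2 (−0.78) and Fbln5 (−0.49). Calls also ended without DcpS shRNA 1 for Cxcl10 (−0.72) and Gfap (−0.92), and without DcpS shRNA 2 for Gfap (−0.90), Cd109 (−0.69), S100a10 (−0.54) and Ptgs2 (−1.22).

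**Figure D3:**
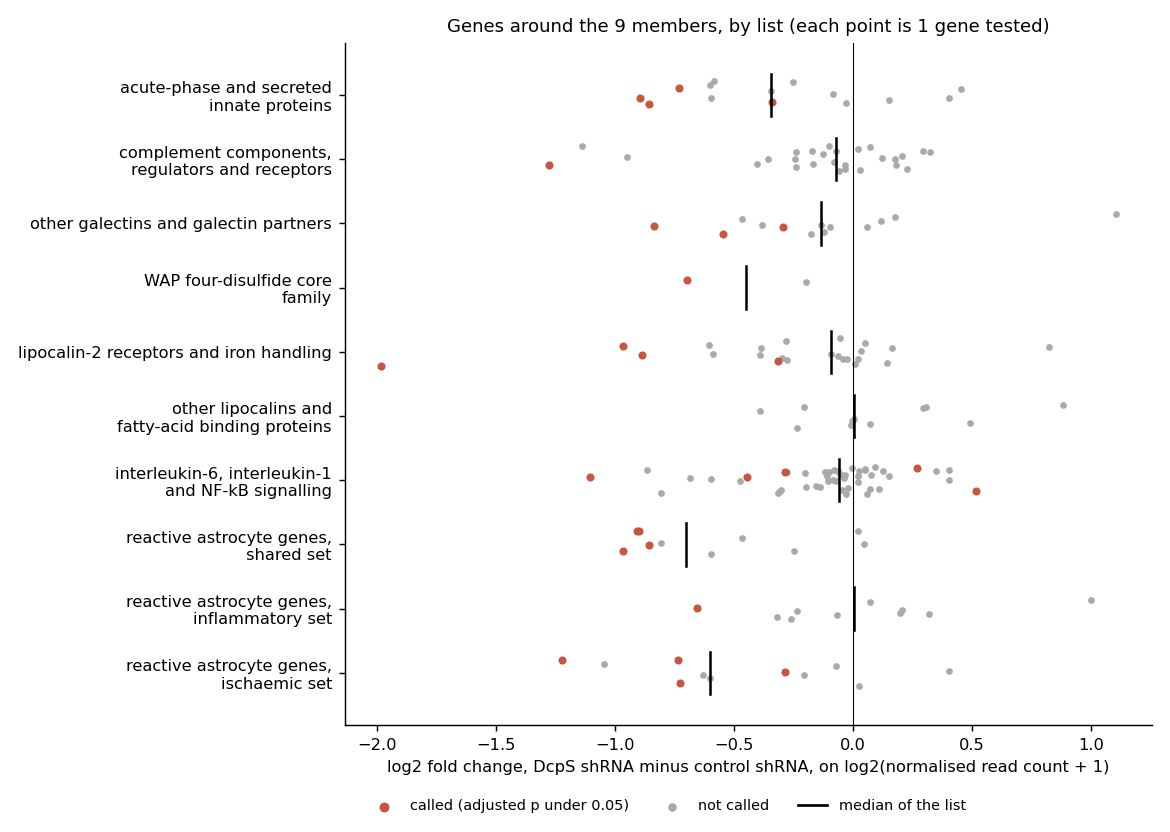
Log2 fold change of DcpS shRNA against control shRNA (horizontal axis) for each tested gene of the lists around the members; each point is 1 gene, red where called, and vertical bars are list medians. The shared and ischaemic astrocyte sets have medians of −0.70 and −0.60, while signalling, complement and other lipocalins centre between −0.07 and 0.0023.

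Markers of other cell types were summed per library to stand beside the members. The meningeal fibroblast list of 14 genes summed to 11630 and 12797 normalised reads in the controls, against 7204 and 6977 with DcpS shRNA, 58.1% of the control mean, with 7 of 14 lower and 0 higher. Without control 2, and with DESeq2, 4 of the 14 were called. Col1a1 (−0.87, SE 0.06), Col3a1 (−0.77, SE 0.06), Col1a2 (−0.85, SE 0.07) and Postn (−1.07, SE 0.08), all matrix proteins, led that list. In the controls Col3a1 had 4454 and 4943 normalised reads, Col1a2 2683 and 3086 and Col1a1 2484 and 2652, most of the list's sum. At an unadjusted p under 0.05 there were 9 lower and 0 higher. Ogn (−0.0008, SE 0.16), Crabp2 (0.49, SE 0.27) and Slc6a13 (0.36, SE 0.29), named after their values were seen, did not follow and were not called. Endothelial and mural markers summed to 855 and 915 against 566 and 535 (62.2%), with 3 of 10 tested lower: Acta2, with a 3′ word (−1.93, SE 0.23), Pdgfrb (−0.72, SE 0.09) and Kdr (−0.74, SE 0.18). Most of that sum was Pdgfrb, at 506 and 534 in the controls. At an unadjusted p under 0.05 there were 4 lower and 1 higher. The higher was the endothelial gene Pecam1 (0.93, SE 0.44), which had few reads, was named after its values were seen and was not called. Arachnoid and other epithelial-like markers summed to 352 and 404 against 224 and 222 (59.1%), with the tight-junction gene Cldn11 (−1.25, SE 0.17) and the keratin Krt8 (−0.63, SE 0.17) lower among 5 tested. Choroid plexus and ependyma markers, mostly the thyroxine carrier Ttr, summed to 6212 and 6480 against 4742 and 5089 (77.5%), with 4 of 9 lower: Enpp2 (−0.74), Ttr (−0.38), Sostdc1 (−0.86) and Aqp1 (−0.71). At an unadjusted p under 0.05 there were 6 lower and 2 higher on that list, the higher being Foxj1, a transcription factor of ciliated cells (0.45, SE 0.13), and the potassium channel subunit Kcne2 (0.48, SE 0.21), both named after their values were seen and neither of them called.

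These 4 summed levels were lower in both DcpS shRNA libraries than in either control. So were the neuronal and astrocyte sums given below, at 95.1% and 98.1% of the control mean. The same order held for 7 of the 9 members (all but Lgals3 and Il6) and for 24.0% of all genes tested. The part of these sums in the members' levels was not tested. Per 1000 normalised reads of the fibroblast list, Lcn2 stood at 52.2 and 58.1 in the controls, against 27.1 and 35.1 with DcpS shRNA, so it was lower relative to that list too. Wfdc2 stood at 14.1 and 15.2 against 7.57 and 9.29, and Lgals3bp at 15.2 and 17.6 against 10.6 and 13.1, both without overlap. C3 stood at 7.03 and 9.62 against 5.30 and 5.93. Serpina3n, with few reads, stood at 2.12 and 2.97 against 0.504 and 2.40, so its groups overlapped on this scale. Lgals1 (28.3 and 30.5 against 32.8 and 40.0) and Saa3 (24.4 and 25.5 against 30.5 and 31.9) were higher relative to the list, the reverse of their normalised read counts. That order depends on the list. Per 1000 of the endothelial and mural list Saa3 was higher too (332 and 357 against 388 and 415), while Lgals1 overlapped (384 and 427 against 417 and 522). Per 1000 of the astrocyte list Lgals1 (26.0 and 31.2 against 19.2 and 22.5) and Saa3 (22.5 and 26.0 against 17.9 and 17.9) were lower. The calls of Kdr (−0.56), Aqp1 (−0.59), Sostdc1 (−0.87) and Krt8 (−0.61) ended without control 2. They ended without control 1 for Aqp1 (−0.83), Sostdc1 (−0.85) and Krt8 (−0.66), without DcpS shRNA 1 for Aqp1 (−0.55) and Krt8 (−0.48), and without DcpS shRNA 2 for Sostdc1 (−0.72). Library-total scaling also ended the call of Aqp1 (−0.71).

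Markers of the remaining types did not move together. Astrocyte markers summed to 12638 and 12540 in the controls, against 12296 and 12395 with DcpS shRNA (98.1%), a sum carried by Aldoc, Slc1a3 and Fgfr3, which radial glia also express. Within that list the water channel Aqp4 (−1.13, SE 0.25), Gfap, the gap-junction gene Gja1, with a 3′ word (−0.67, SE 0.08), and Slc4a4 (−0.53, SE 0.09) were lower and Aldoc was higher (0.21, SE 0.05), 4 and 1 of 10 tested. The median log2 fold change of the astrocyte list was −0.32, with 7 lower and 1 higher at an unadjusted p under 0.05. Its sum therefore does not describe most of its genes. Microglia and macrophage markers summed to 513 and 531 against 514 and 542, with 0 of 13 called by limma, edgeR or DESeq2 and 0 lower and 1 higher at an unadjusted p under 0.05. Of the 10 neutrophil markers 4 were measured, and they summed to between 0.909 and 3.80 normalised reads in the 4 libraries, so these 4 were near 0. The others, Ly6g, S100a8, S100a9, Mpo, Ltf and Retnlg, had no values. Neuronal markers summed to 99273 and 97067 in the controls, against 94319 and 92310 with DcpS shRNA, with synaptophysin, Syp (0.63, SE 0.06), and Rbfox3 (0.24, SE 0.06) higher and Snap25 lower (−0.26, SE 0.06). Oligodendrocyte lineage markers summed to 848 and 879 against 834 and 864, with Pdgfra lower (−0.63, SE 0.14) and Mbp higher (0.47, SE 0.12). Without control 2 Aqp4 was −1.02, Aldoc 0.20, Rbfox3 0.18 and Pdgfra −0.60, and without control 1 Aldoc was 0.22, Snap25 −0.24 and Mbp 0.35, none of them called. The calls of Aqp4 without DcpS shRNA 1 (−0.81) and of Rbfox3 (0.21) and Mbp (0.43) without DcpS shRNA 2 ended as well. Among the list genes named here as called, DESeq2 did not call Chil1, Apoe, Lgals9, Wfikkn2, Lrp2, Stat3, Il17ra, Cxcl10, Fbln5, Cd109, S100a10, Rbfox3, Aqp4, Kdr, Sostdc1, Aqp1, Pdgfra, Mbp or Krt8, and it gave Slc39a8, Il1r1 and Ptgs2 no adjusted p.

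**Figure D4:**
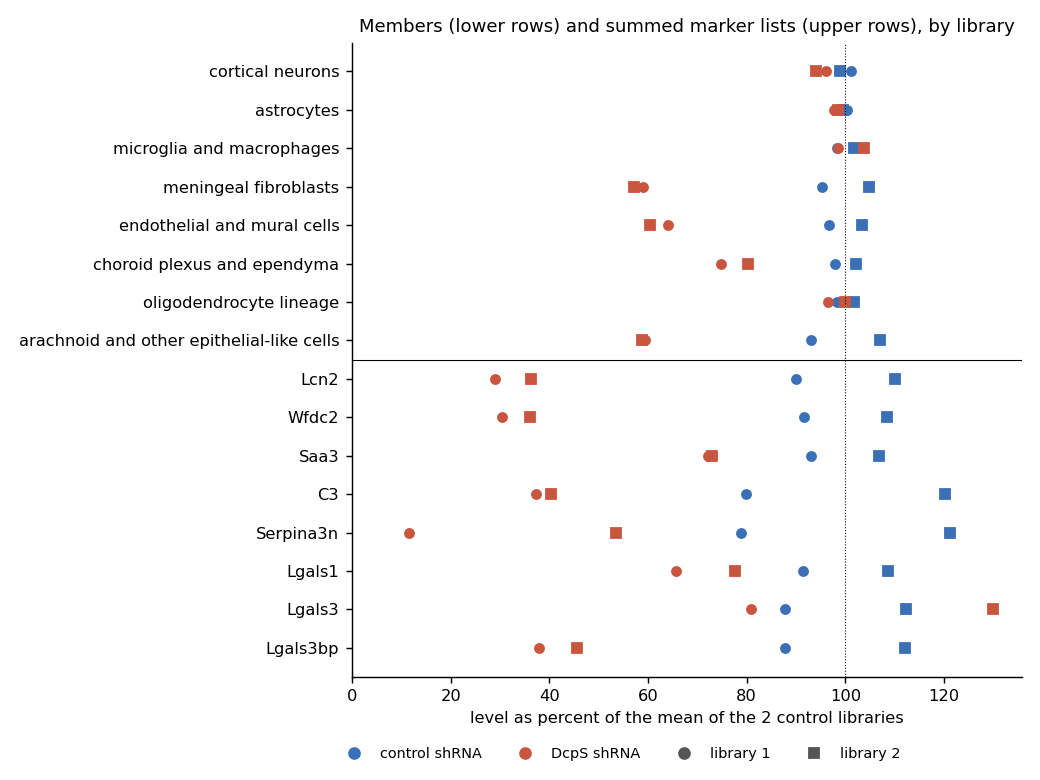
Level in each library as a percent of the mean of the control libraries (horizontal axis, linear from 0), for 8 members (lower rows) and the summed marker lists (upper rows); blue is control shRNA, red DcpS shRNA, circles library 1 and squares library 2. Lcn2 and Wfdc2 lie at 28.9% to 36.2% with DcpS shRNA, left of the fibroblast sum at 58.1% of the control mean, and neuronal, astrocyte and microglial sums lie near 100.

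Outside the 9 genes, the profiles nearest to that of Lcn2 over the 4 libraries, among 12284 genes with at least 5 CPM, were those of Enpp1, an ectonucleotide pyrophosphatase (distance 0.42), the gelatinase Mmp9 (0.49), the thrombospondin Thbs2 (0.66), the collagen receptor Itga1 (0.67) and the secreted phosphoprotein Spp1 (0.73). Mmp9 had 139 and 162 normalised reads in the controls, against 49.97 and 73.8 with DcpS shRNA, and Spp1 had 156 and 263 against 70.9 and 111. Of the members, Wfdc2 (0.087), C3 (0.50) and Lgals3bp (0.53) had 0, 2 and 2 outside genes nearer to Lcn2 than themselves. Serpina3n (1.19), Lgals1 (1.61), Saa3 (1.65) and Lgals3 (2.36) were farther away. This distance over 4 libraries takes in both the size of the fold change and the spread within each group.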

How the data were processed

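RNA-seq was carried out on 4 mouse cortical neuron cultures, 2 per group. Per the submitters' processing notes, HISAT2 2.2.0, SAMtools 1.3.1, Picard, featureCounts and DESeq2 were used with GRCm38; the annotation, the use of strand and the rule for reads matching several genes were not stated. Deposited values are a signal scaled by the authors: every value is a whole multiple of its column's smallest positive value, giving whole reads for 100% of values within a tolerance of 0.001. The implied factors, 0.895 to 1.10, equalled median-of-ratios size factors.

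The test was limma 3.58.1 on log2(normalised read count + 1), with trend and robust empirical Bayes and group as the only term, for 18110 genes passing edgeR's filterByExpr (minimum count 10). Fold changes are on that scale, where the added 1 shrinks changes of low genes. Serpina3n, with few and uneven reads, was still more negative there (−1.80) than with edgeR (−1.69) or DESeq2 (−1.66). With a pseudocount of 5 Serpina3n was at −1.38 and Lcn2 at −1.60, so its place as the most negative member depends on the scale. With 2 against 2, an exact permutation test of 1 gene cannot fall below 0.333, so p-values rest on spread pooled across genes. Alternatives were edgeR 4.0.16 and DESeq2 1.42.0 on recovered reads, pseudocounts of 0.5 and 5, no filter, TMM and library-total scaling, a replicate block and leaving out each library. The scripts were tested on simulated data. The members, lists and tests were chosen with earlier results of these data known. Named genes are Dcps, the members, up to 6 called genes by p per pathway list (3 most abundant where 0 were called), up to 4 called and 3 most abundant per marker list, and the 5 nearest to Lcn2. A count of 0 allows 0.138 to 0.169 CPM (3 reads), for counting error only. The called gene of the complement list is not reported here.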

Additional observations from a re-analysis of the deposited data

How the results depend on the processing

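The members were chosen by this contrast, so their values under the alternatives are a description and support nothing. Over the 12 alternatives the log2 fold changes of Lcn2, Wfdc2, Lgals3bp and C3 ran from −1.78 to −1.45, −1.70 to −1.45, −1.42 to −1.07 and −1.61 to −1.02. Lgals1 and Saa3 were not called in 3 and 2 alternatives, and Serpina3n was called in 3, among them edgeR and the replicate block. Lgals3 turned to −0.13 without control 1 and to −0.29 without DcpS shRNA 2, in a range of −0.29 to 0.38 with 1 library left out. Members called lower numbered 4 to 7 when 1 library was left out, in fits where the lone library of its group is assumed to vary like the others. Over all genes, 453 were called with DESeq2 (312 lower) and 594 to 1439 (369 to 949 lower) with 1 library left out. The genes called on the pathway and marker lists numbered 48, with DESeq2 23 and with 1 library left out 24 to 48. The cause was not tested.

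The titles carry set numbers, and the labels do not state whether these pair the libraries. Deviations of same-numbered libraries correlated at 0.057 over 16850 genes, from a single difference per group, which cannot settle pairing. With the replicate block 1626 genes were called, 980 of them lower, and 7 members. Genes near no change turned sign in single alternatives. Fabp7 went to −0.0033 with edgeR and −0.0023 with TMM scaling. With 1 library left out, log2 fold changes ran from −0.058 to 0.062 for Fabp7, −0.18 to 0.16 for Fabp3, −0.056 to 0.012 for Tubb3, −0.084 to 0.031 for Map2, −0.12 to 0.035 for Clic6 and −0.32 to 0.077 for Cd68. Depth limits Il6 and Serpina3n most.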

Other observations

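In all 8 tested members library 2 was above library 1 in both groups, whereas 25.7% of the 18110 genes tested and 27.5% of those called lower had that order. The count was also 8 of 8 with library-total scaling. The ratio of library 2 to library 1 is part of the spread given beside each member. Whether the replicate numbers mark a shared set is not stated.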
